A study of Mus musculus with 6 samples.

Results

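A set of 9 genes that carry or restrain the interferon signal was examined in mouse bone marrow-derived macrophages with and without vimentin, a cytoskeletal intermediate filament protein. The genes were the interferon regulatory factors Irf1, Irf2, Irf5, Irf7 and Irf9, the transcription factor Stat2, the deconjugating enzyme Usp18, the ubiquitin-like modifier Isg15 and the suppressor Socs1. Members were all probe sets, of 45101 on the array, whose platform annotation names exactly 1 symbol that is one of these 9 genes. This gave 10 probe sets of 8 genes, of 18193 genes with such a probe set. The probe set listed for Isg15 also names the gene Gm9706, so Isg15 has no value of its own here. RNA came from 3 vimentin-deficient samples and 3 samples of wild-type littermates, from mice 17 weeks old, kept pathogen-free, on a C57BL/6 background and fed chow. Femoral marrow of both genotypes was grown at normal oxygen with macrophage colony-stimulating factor from the supernatant of the cell line CMG14-12, and the labels name no interferon or microbial stimulus. The labels call the samples of a genotype biological replicates without saying whether each came from its own animal. Each was hybridised to 1 Affymetrix array, and the 3 arrays per genotype limit the precision of every value.

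Type I interferon binds a receptor made of IFNAR1 and IFNAR2, whose kinases TYK2 and JAK1 phosphorylate STAT2. STAT2 and IRF9 act in the complex ISGF3, which binds the interferon-stimulated response element (ISRE) in the promoters of its targets, among them Irf7, Stat2, Irf9, Usp18 and Isg15. Interferon gamma acts mainly through the gamma-activated site (GAS), which drives Irf1, among others. In macrophages low constitutive interferon keeps this circuit primed. USP18 removes ISG15 from proteins and also blocks signalling at IFNAR2, and SOCS1 inhibits the kinases.

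Promoter sequence is shown because several members, not all, are described as driven through the ISRE or the GAS, and the members differed in how far they moved. RefSeq promoters of build GRCm38.p6 were matched by symbol for 8 of the 9 members, with 10 start sites, and not for Usp18. In the 250 bases before each start, both strands were searched for the ISRE core, a pair of GAAA runs with any 2 bases between them, and for the GAS letters TTCNNNGAA. Capitals mark a match, and overlapping ISRE cores run together.
Isg15, chr4:156200819-156201068, minus strand: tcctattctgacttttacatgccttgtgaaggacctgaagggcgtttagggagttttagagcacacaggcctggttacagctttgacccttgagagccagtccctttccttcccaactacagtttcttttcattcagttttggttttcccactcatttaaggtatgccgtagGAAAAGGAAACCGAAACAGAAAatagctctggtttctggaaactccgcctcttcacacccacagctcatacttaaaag
Stat2, chr10:128270248-128270497, plus strand: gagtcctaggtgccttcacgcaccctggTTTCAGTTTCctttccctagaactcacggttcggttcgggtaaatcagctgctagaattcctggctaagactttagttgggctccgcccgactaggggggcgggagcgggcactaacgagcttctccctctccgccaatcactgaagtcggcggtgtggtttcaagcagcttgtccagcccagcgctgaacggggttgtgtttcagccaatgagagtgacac
Irf7, chr7:141266425-141266674, minus strand: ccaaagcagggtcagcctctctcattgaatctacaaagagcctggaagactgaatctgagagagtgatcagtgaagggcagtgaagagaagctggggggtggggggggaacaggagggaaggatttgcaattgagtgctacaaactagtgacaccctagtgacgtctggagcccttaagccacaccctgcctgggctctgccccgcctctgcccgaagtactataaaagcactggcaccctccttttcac
Socs1, chr16:10785537-10785786, minus strand: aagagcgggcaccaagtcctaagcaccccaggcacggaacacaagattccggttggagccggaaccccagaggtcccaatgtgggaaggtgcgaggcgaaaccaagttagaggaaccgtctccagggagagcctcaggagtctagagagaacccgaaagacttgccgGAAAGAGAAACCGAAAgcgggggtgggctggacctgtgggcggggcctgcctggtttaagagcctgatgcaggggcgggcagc
Irf2, chr8:46739495-46739744, plus strand: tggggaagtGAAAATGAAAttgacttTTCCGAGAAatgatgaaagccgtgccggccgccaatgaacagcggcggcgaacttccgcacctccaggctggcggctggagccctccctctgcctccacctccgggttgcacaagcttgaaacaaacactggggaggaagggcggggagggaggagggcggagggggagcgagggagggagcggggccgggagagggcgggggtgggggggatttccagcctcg
Irf1, chr11:53769764-53770013, plus strand: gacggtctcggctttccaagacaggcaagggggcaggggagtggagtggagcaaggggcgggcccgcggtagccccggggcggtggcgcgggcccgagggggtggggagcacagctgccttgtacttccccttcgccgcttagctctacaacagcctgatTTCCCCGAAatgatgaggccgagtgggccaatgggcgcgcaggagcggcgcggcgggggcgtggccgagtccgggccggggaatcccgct
The ISRE core was found in 4 of the 10 windows, those of Isg15, Stat2, Socs1 and Irf2, and in 2.98% of the 32851 promoters of the table. Isg15 holds 3 overlapping cores that start 78, 72 and 66 bases before the transcription start, and Socs1 holds 2 that start 83 and 77 bases before it. The Stat2 core lies 222 bases before the start and that of Irf2 241 bases before it. GAS letters were found before the first start of Irf1, at 90 bases, and in Irf2, at 224 bases, against 7.02% of all promoters. The windows of Irf5, Irf7, both starts of Irf9 and the second start of Irf1 held neither, which says only that these letters are not in them.

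The arrays were checked before the members were compared. The brightest Vim probe set read 8.20, 6.96 and 7.13 on vimentin-deficient replicates 1, 2 and 3 and 13.24 to 13.41 on the wild-type arrays (log2 fold change -5.89, SE 0.31, limma adjusted p = 0.00414). Vimentin-deficient replicate 3 stood apart: it correlated with the other arrays at 0.975 to 0.979 across probe sets, while those correlated with each other at 0.992 to 0.998. The members' genes are therefore given with and without it. All 7 measured macrophage markers lay above the intensity filter, the brightest being the lysozyme gene Lyz2 at 14.06 and Cd68 at 13.67 over the 6 arrays. The Gapdh control probe sets were dimmer on that array, with the 3′ one at 12.97 against 13.28 to 13.52 on the others. The difference between 3′ and 5′ control probe sets, a measure of RNA integrity, ran from -0.02 to 0.01 for Gapdh and from 0.18 to 0.23 for Actb. In bulk RNA, fewer cells of a type and less RNA per cell cannot be told apart.

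With all 6 arrays, Usp18, Irf7, Stat2 and Irf9 read higher on every vimentin-deficient array than on any wild-type array, by 3.97-fold, 2.58-fold, 1.74-fold and 1.39-fold between the group means. Irf1, Irf2, Irf5 and Socs1 overlapped between the genotypes. By limma with Benjamini-Hochberg adjustment over 13445 genes, 0 of the 8 member genes passed an adjusted p of 0.05. In that fit 0.0223% of all tested genes passed, all of those lower. A test of each gene on its own variance called 0 of the 13445 genes, Vim included, so its 0 for the members says nothing about them. Usp18, Irf7, Stat2 and Irf9, 4 members, had an unadjusted limma p of less than 0.05 and were higher, as did 3.01% of all genes in that direction and 7.97% in either. Without vimentin-deficient replicate 3, Usp18, Irf7 and Stat2 rose (limma, 2 arrays against 3), 3 of 8 members, where 1.31% of all genes rose and 1.03% fell, 2.34% in all. Among the 10 member probe sets 0 passed with 6 arrays (background 0.0111%, all lower) and 4 rose without that array (background 0.695%, or 1.18% in either direction). With 6 arrays 5 of the 10 had separated, higher groups (background 5.49%) and 5 an unadjusted limma p of less than 0.05 (background 6.69%). The median log2 fold change of the 8 members was 0.34 with 6 arrays and 0.19 without that array, beside -0.02 and -0.01 for all tested genes. A higher mean was found for 7 of 8 members, as for 39.6% of tested genes. Groups of 4 members lay wholly higher and of 0 wholly lower, where 5.32% of tested genes lay wholly higher and 10.1% wholly lower. All 8 members passed the filter on mean intensity of 6.93, and the lowest wild-type mean among them, 7.11 for Socs1, also lay above it.

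**Figure D1:**
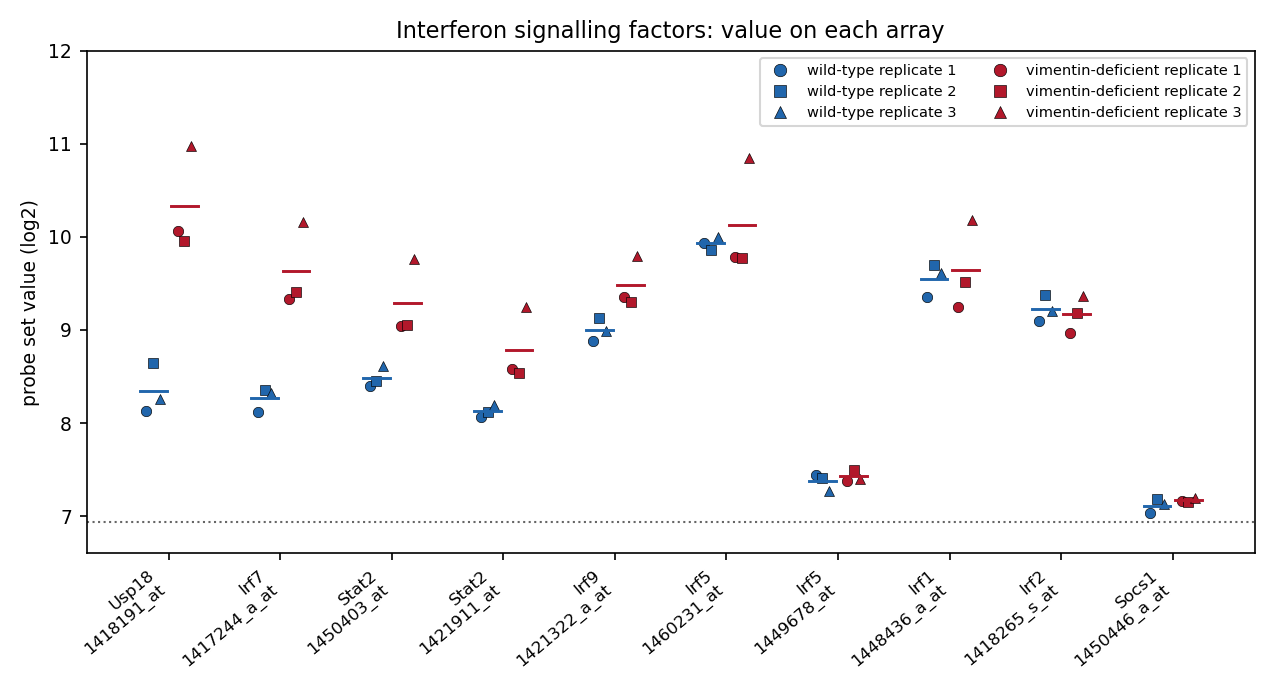
Deposited log2 value of each of the 10 member probe sets on each array; points are arrays, bars are group means and the dotted line is the intensity filter at 6.93. Usp18, Irf7, both Stat2 probe sets and Irf9 are separated by genotype, and vimentin-deficient replicate 3 (red triangle) is the highest array for 7 of the 8 genes.

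Of the factors that carry the type I signal, Stat2 was measured by 2 probe sets that were designed on the same GenBank entry and are not independent measures. The brighter one read 9.05, 9.05 and 9.76 on vimentin-deficient replicates 1, 2 and 3, and 8.39, 8.45 and 8.62 on wild-type replicates 1, 2 and 3. The groups did not overlap, and the lowest vimentin-deficient array lay 0.43 log2 units above the highest wild-type array. Between the means the log2 fold change was 0.80 (SE 0.20, 95% interval 0.33 to 1.27, limma adjusted p = 0.362), and without vimentin-deficient replicate 3 it was 0.56 (SE 0.08, limma adjusted p = 0.00485). The dimmer probe set read 8.58, 8.53 and 9.24 on the vimentin-deficient arrays and 8.06, 8.12 and 8.20 on the wild-type arrays. Its log2 fold change was 0.66 (SE 0.18) in the limma fit to all 45037 probe sets that are not controls (adjusted p = 0.642), and 0.43 (SE 0.07, adjusted p = 0.0124) without that array. Both Stat2 probe sets thus gave the same direction and the same calls.

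Irf9 encodes the DNA-binding subunit that joins STAT2 in ISGF3. It read 9.35, 9.30 and 9.79 on the vimentin-deficient arrays and 8.88, 9.13 and 8.99 on the wild-type arrays. The groups did not overlap, with a gap of 0.17 between the lowest vimentin-deficient and the highest wild-type array. The log2 fold change was 0.48 (SE 0.15, 95% interval 0.13 to 0.82, limma adjusted p = 0.483). Without vimentin-deficient replicate 3 it was 0.32 (SE 0.09) and still missed the threshold (limma adjusted p = 0.102). Irf9 was the one of the 4 separated members that passed in neither fit.

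Irf7 is an interferon-induced factor that in turn drives interferon alpha genes and so amplifies the response. It read 9.33, 9.41 and 10.16 on the vimentin-deficient arrays and 8.12, 8.35 and 8.33 on the wild-type arrays. The wild-type arrays spanned 0.24 log2 units, and the lowest vimentin-deficient array lay 0.98 above the highest of them. Irf7 had a log2 fold change of 1.37 (SE 0.22, 95% interval 0.85 to 1.88, limma adjusted p = 0.179), and Irf7 rose by 1.11 (SE 0.09, limma adjusted p = 0.000127) without vimentin-deficient replicate 3.

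The other interferon regulatory factors overlapped between the genotypes. Irf1, an activator induced by interferon gamma, read 9.24, 9.51 and 10.18 on the vimentin-deficient arrays and 9.35, 9.69 and 9.61 on the wild-type arrays. Vimentin-deficient replicate 1 was the lowest of the 6 arrays and replicate 3 the highest. The log2 fold change of Irf1 was 0.09 (SE 0.24, 95% interval -0.47 to 0.66, limma adjusted p = 0.936), and -0.17 (SE 0.12, limma adjusted p = 0.577) without vimentin-deficient replicate 3. Irf2, which competes with Irf1 for the same DNA sites and mostly represses, read 8.97, 9.18 and 9.36 on the vimentin-deficient arrays and 9.10, 9.38 and 9.21 on the wild-type arrays. Its values interleaved, and the log2 fold change came to -0.06 (SE 0.12, 95% interval -0.35 to 0.24, limma adjusted p = 0.928), and to -0.15 (SE 0.10, limma adjusted p = 0.579) without that array.

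Irf5 acts downstream of Toll-like receptors in macrophages and promotes inflammatory cytokine genes. Its bright probe set read 9.78, 9.78 and 10.84 on the vimentin-deficient arrays and 9.93, 9.86 and 10.00 on the wild-type arrays. Vimentin-deficient replicates 1 and 2 lay below all wild-type arrays and replicate 3 above all of them. The log2 fold change was 0.20 (SE 0.28, 95% interval -0.46 to 0.87, limma adjusted p = 0.887), and without replicate 3 it was -0.15 (SE 0.08, limma adjusted p = 0.452). The second Irf5 probe set, designed on the GenBank entry C80427, was much dimmer and did not show the high array: it read 7.38, 7.50 and 7.40 against 7.44, 7.41 and 7.27. Its log2 fold change was 0.05 (SE 0.06), and 0.07 (SE 0.07) without replicate 3. The high value on vimentin-deficient replicate 3 therefore rests on 1 of 2 probe sets.

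Of the feedback regulators, Usp18 showed the widest separation of all members. It read 10.06, 9.95 and 10.98 on the vimentin-deficient arrays and 8.13, 8.64 and 8.26 on the wild-type arrays. Every vimentin-deficient array lay at least 1.31 log2 units above every wild-type array, although the wild-type arrays spanned 0.51, the widest wild-type range among the members. For Usp18 the log2 fold change was 1.99 (SE 0.28, 95% interval 1.32 to 2.66, limma adjusted p = 0.166), and Usp18 rose by 1.67 (SE 0.13, 3.17-fold, limma adjusted p = 0.000127) without vimentin-deficient replicate 3.

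Socs1 stayed close to the filter on all arrays. It read 7.17, 7.16 and 7.19 on the vimentin-deficient arrays and 7.03, 7.18 and 7.13 on the wild-type arrays. The log2 fold change was 0.06 (SE 0.05, 95% interval -0.06 to 0.17, limma adjusted p = 0.797), and 0.05 (SE 0.06, limma adjusted p = 0.806) without vimentin-deficient replicate 3. The whole range over 6 arrays was 0.16. Its mean lay at the 46.8th percentile of all probe sets. The probe set that names both Isg15 and Gm9706 is not counted among the members and cannot be assigned to either gene. It read 9.29, 9.26 and 10.29 on the vimentin-deficient arrays and 7.82, 7.90 and 7.96 on the wild-type arrays, which gave 1.72 as the log2 fold change (SE 0.26, limma adjusted p = 0.338 over all probe sets) and of 1.38 (SE 0.08, limma adjusted p = 3.54e-06) without vimentin-deficient replicate 3.

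**Figure D2:**
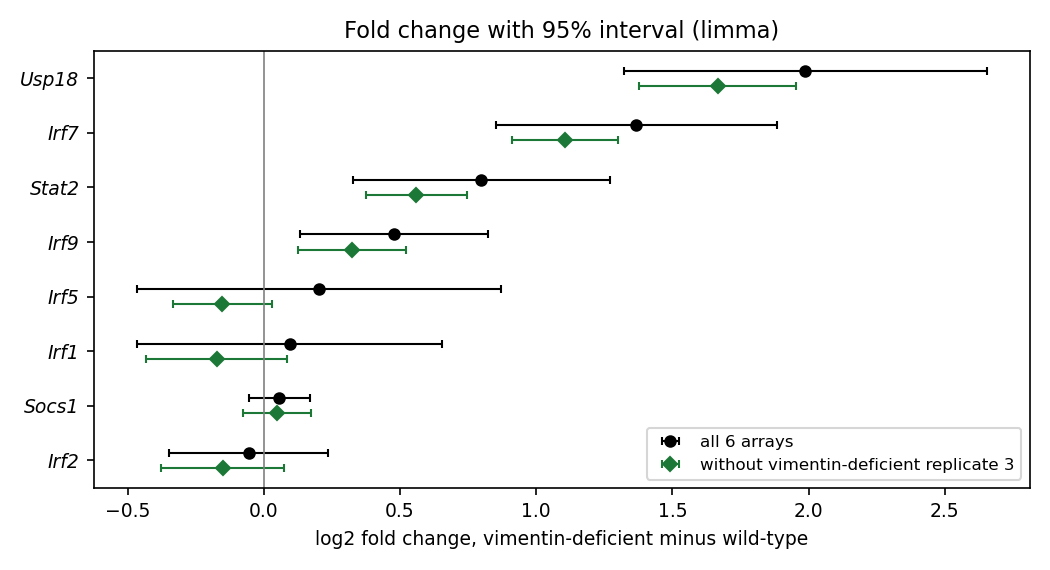
Log2 fold change of the 8 member genes, vimentin-deficient minus wild-type, with unadjusted 95% limma intervals (bars), for all 6 arrays (black circles) and without vimentin-deficient replicate 3 (green diamonds). Usp18, Irf7, Stat2 and Irf9 lie above 0 in both fits, and Irf1 and Irf5 change sign between them.

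Vimentin-deficient replicate 3 moved the size of the differences. The 4 higher members were separated with all 6 arrays, and leaving an array out cannot undo that. Replicate 3 was the highest of all 6 arrays for 7 of the 8 members, as it was for 22% of all tested genes. It lay above the average of vimentin-deficient replicates 1 and 2 by 0.97 for Usp18, 0.79 for Irf7, 0.72 for Stat2 and 0.46 for Irf9. For Irf5 and Irf1, which lay below the wild-type mean on replicates 1 and 2, this excess was 1.07 and 0.80. Vimentin-deficient replicates 1 and 2 lay close together, 0.11 apart for Usp18, 0.08 for Irf7, 0.0054 for Stat2 and 0.054 for Irf9. On these arrays Usp18 lay 1.72 and 1.61 above the wild-type mean, Irf7 1.07 and 1.15, Stat2 0.56 and 0.56, and Irf9 0.35 and 0.30. On replicate 3 Irf5 lay 0.91 and Irf1 0.63 above the wild-type mean. Irf2 lay 0.26 and 0.04 below it on replicates 1 and 2 and 0.13 above it on replicate 3, and Socs1 lay 0.05, 0.04 and 0.08 above it. The part of the dimmer Gapdh signal or of the array's lower correlation with the others in this excess was not tested.

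**Figure D3:**
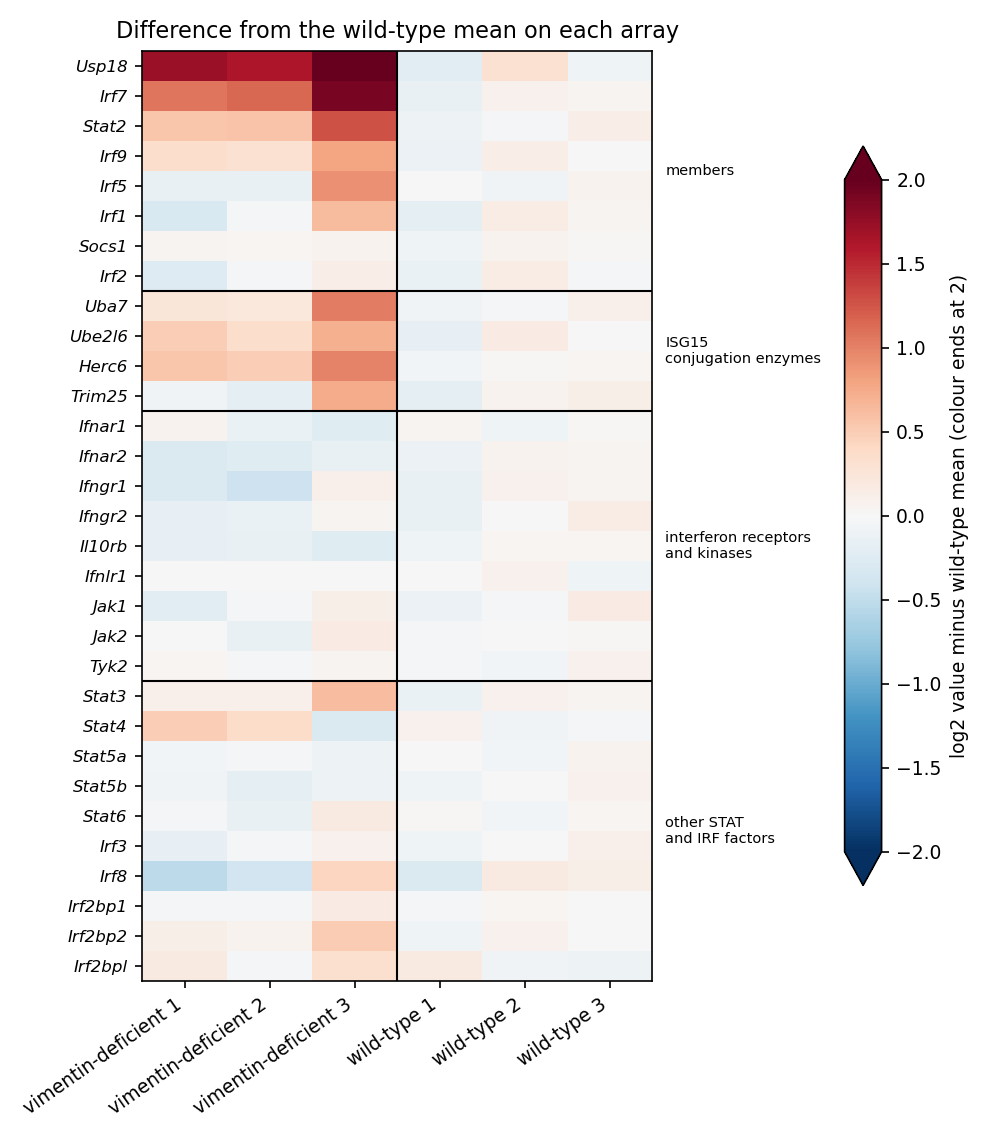
Log2 value minus the wild-type mean for the members, the ISG15 conjugation enzymes, the receptors and kinases and the other STAT and IRF factors (rows) on each array (columns); the colour scale ends at 2. Usp18, Irf7, Stat2 and Irf9 are red on all 3 vimentin-deficient arrays, and Irf5 and Irf1 are red on replicate 3 alone.

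The profiles most like the members were sought among tested genes by the root mean square difference over 6 arrays, after centring each gene on its wild-type mean. It was done for the 4 members that spanned at least 1 log2 unit. Nearest to Usp18 were Ifit1 (0.18), Rtp4 (0.19) and Oasl2 (0.25), and nearest to Irf7 were Oas3 (0.13), Cmpk2 (0.17) and Zbp1 (0.19), all of them in the list of type I interferon targets used below. Nearest to Stat2 were the chemokine gene Ccl5, the GTPase gene Igtp and Znfx1, between 0.08 and 0.09. Nearest to Irf5 were Pnisr, Ninj1 and Mtcp1, between 0.07 and 0.08, with log2 fold changes of 0.19 to 0.26, and these are not in the interferon lists. Among the 8 members, the nearest pair was Irf2 and Socs1, 0.14 apart, followed by Irf1 and Irf5 at 0.18 and Irf1 and Irf2 at 0.21. The distance is not scaled, so genes that vary little lie close to each other whatever their pattern. Socs1 spanned 0.16 and Irf2 0.41 log2 units over the 6 arrays. Stat2 lay 0.26 from Irf9 and 0.41 from Irf7, and the farthest pair was Irf2 and Usp18, 1.47 apart. These distances describe 6 arrays of which one stands apart.

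Upstream, the receptors and kinases centred near 0. All 9 receptor and kinase genes were tested, with a median log2 fold change of -0.09 and a range from -0.23 to 0.02, and 0 passed by limma in either fit. Ifnar2, the receptor chain that USP18 binds, had -0.23 (SE 0.09, limma adjusted p = 0.593), and Il10rb, a chain shared with interferon lambda receptors, -0.18 (SE 0.07). Both lay wholly below wild-type, as did 10.1% of all tested genes. Ifngr1 had -0.20 (SE 0.15) and Ifnar1 -0.10 (SE 0.10). Without vimentin-deficient replicate 3 the values were -0.27 for Ifnar2, -0.16 for Il10rb, -0.35 for Ifngr1 and -0.03 for Ifnar1. Of 8 measured interferon genes, 6 lay below the filter, with means from 6.00 to 6.73 that include Ifnb1 and Ifng, and Ifna2 and Ifna1, just above it, had log2 fold changes of 0.035 (SE 0.07) and 0.00054 (SE 0.08), and 0.06 and 0.05 without that array. A dim probe set does not show that a transcript is absent.

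The other STAT and IRF factors, 10 tested, had a median of 0.02, with 5 higher and 5 lower. Stat4 alone passed, in the fit without vimentin-deficient replicate 3, where it rose by 0.43 (SE 0.07, limma adjusted p = 0.00692). In that fit 1.31% of all genes rose. Stat4 read 7.85 and 7.73 on vimentin-deficient replicates 1 and 2 but 7.07 on replicate 3, below the wild-type arrays at 7.28 to 7.45. With 6 arrays Stat4 had 0.19 (SE 0.19). Of the 10 genes 1, Stat3, lay wholly above wild-type and 0 wholly below, where 5.32% and 10.1% of all tested genes did. Irf2bp2, a co-repressor of IRF2, had 0.24 (SE 0.13), Stat3 0.27 (SE 0.16), Irf2bpl 0.16 (SE 0.12) and Stat5b -0.12 (SE 0.07). Without vimentin-deficient replicate 3 these were 0.10 for Irf2bp2, 0.10 for Stat3, 0.07 for Irf2bpl and -0.13 for Stat5b. The 15 other inhibitors of the pathway, SOCS proteins, phosphatases and PIAS ligases, had a median of -0.01 and 0 passed by limma in either fit. In this list the phosphatase gene Ptpn1 had -0.26 (SE 0.12), Socs7 0.26 (SE 0.16), Socs5 0.14 (SE 0.09) and Socs2 -0.07 (SE 0.05). Without that array Ptpn1 had -0.31, Socs7 0.08, Socs5 0.14 and Socs2 -0.07.

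The enzymes that attach ISG15, which USP18 removes, had higher means. All 4 tested genes lay above wild-type on average, as 39.6% of tested genes did, with a median of 0.51. Of the 4, 3 lay wholly above wild-type, as 5.32% of all tested genes did. Herc6, the main ISG15 ligase of the mouse, read 8.87 to 9.37 on the vimentin-deficient arrays and 8.32 to 8.43 on the wild-type arrays, which gave 0.68 as the log2 fold change (SE 0.13, limma adjusted p = 0.269). The conjugating enzyme gene Ube2l6 had 0.52 (SE 0.12, limma adjusted p = 0.331) and the activating enzyme gene Uba7 0.49 (SE 0.22). Trim25, a ligase that is itself modified by ISG15, had 0.17 (SE 0.24). Without vimentin-deficient replicate 3, Herc6 (0.52, limma adjusted p = 0.00373) and Ube2l6 (0.42, limma adjusted p = 0.0461) rose, while Uba7 had 0.23 and Trim25 -0.12. In that fit 1.31% of all genes rose.

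Downstream, all 27 tested type I interferon targets had higher means, with a median of 0.91, and all 27 lay wholly above wild-type, as 5.32% of all tested genes did. With 6 arrays 0 passed by limma (lowest adjusted p = 0.124), and without vimentin-deficient replicate 3 there were 23 that rose, where 1.31% of all genes rose, and the median was 0.67. Mx1, among both the 27 and the 23, had a wild-type mean of 6.68, below the filter, and was tested only through its vimentin-deficient mean of 7.52. Over the 26 genes with a wild-type mean above the filter, a restriction chosen after seeing the data, the medians were 0.93 and 0.73 and 22 rose. The size of Usp18 among them was exceeded by Ly6e (2.34, SE 0.36), Ifit2 (2.20), Ifit3 (2.13) and Ifit1 (2.06). Of 13 tested interferon gamma type targets 12 had higher means, with a median of 0.55, 8 lay wholly above wild-type and 4 rose without that array, Irgm1 (0.72), Nlrc5 (0.50), Igtp (0.49) and Tap1 (0.41). Iigp1, one of the 12, had a wild-type mean of 6.72, below the filter, and a vimentin-deficient mean of 7.89. Over the 12 genes with a wild-type mean above the filter, 11 had higher means, the median was 0.45 and 4 rose. Many genes of this second list also respond to type I interferon. The measured genes of that list that were not tested were Ciita, Cxcl9 and Nos2. Their means over the 6 arrays, 6.50 to 6.90, lay below the filter. Ciita read 7.23 on vimentin-deficient replicate 3, above the filter, and 6.70 to 6.88 on the other arrays. Whether either type of interferon had a part in these values was not tested.

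**Figure D4:**
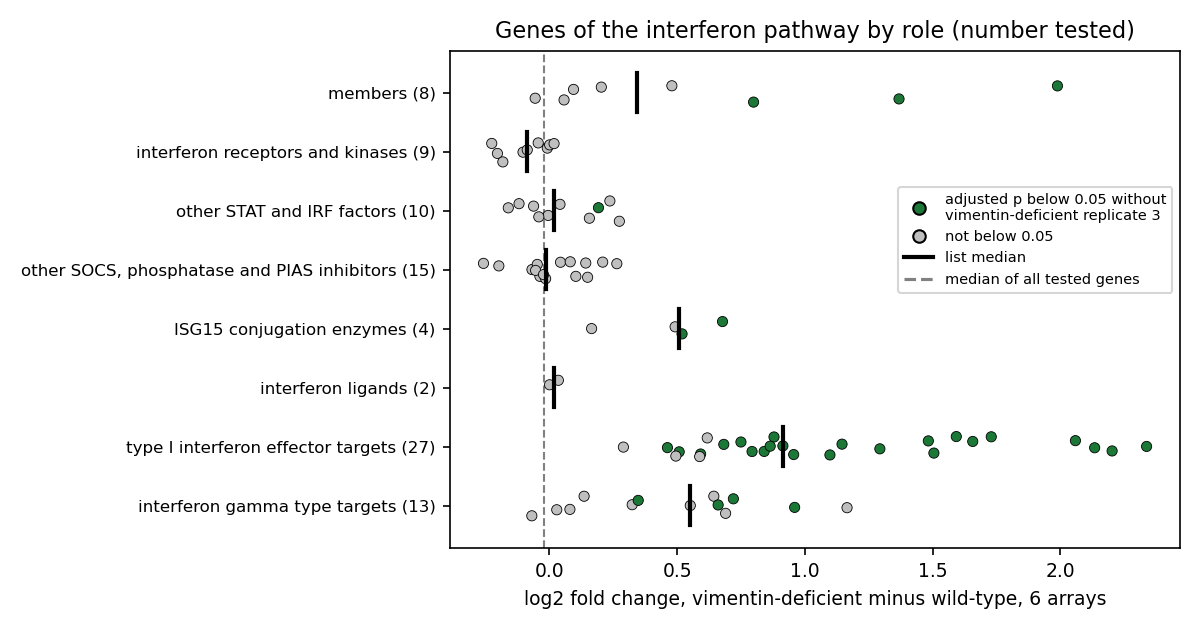
Log2 fold change with 6 arrays for each tested gene (points) of the members and of 7 pathway lists (rows, number tested in brackets), with the list median (black bar) and the median of all tested genes (dashed). Receptors, kinases, other factors and other inhibitors centre near 0, and type I targets have a median of 0.91; green points have adjusted p below 0.05 without vimentin-deficient replicate 3.

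Plasmacytoid dendritic cells, which express much Irf7, can arise in marrow culture, so their markers were read beside the members. All 8 of their markers were measured and 5 lay above the filter, led by Tcf4 and Klk1. Tcf4 read 9.93, 9.94 and 10.67 on the vimentin-deficient arrays and 9.74 to 10.13 on the wild-type arrays, highest on vimentin-deficient replicate 3. Klk1 read 8.90, 9.07 and 8.97 on the vimentin-deficient arrays and 8.996 to 9.089 on the wild-type arrays. Cox6a2 was lowest on replicate 3, at 8.41 against 8.90 and 9.08 on replicates 1 and 2 and 8.69 to 8.73 on the wild-type arrays. Ccr9 lay wholly above wild-type, as 5.32% of all tested genes did, at 7.971 to 7.993 against 7.884 to 7.963. Its log2 fold change was 0.05 (SE 0.05). Spib overlapped between the genotypes, with -0.04 (SE 0.05). Siglech, Ly6d and Pacsin1 lay below the filter. The mean of the list was 7.904 to 7.998 on the vimentin-deficient arrays and 7.886 to 7.992 on the wild-type arrays, so the list means overlapped. By limma 0 of these markers passed in either fit. The mean of the macrophage list was 12.26 to 12.46 against 12.21 to 12.37. Of its 7 genes 2 had higher and 5 lower means, with 6 arrays and without vimentin-deficient replicate 3. Without that array Cd14 rose by 0.59 (limma adjusted p = 0.00201), while Mertk had -0.46 (SE 0.12, limma adjusted p = 0.0946), Adgre1 -0.25, Lyz2 -0.15, Csf1r -0.14, Cd68 -0.11 and Itgam 0.20. Their part in the members' values was not tested.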

How the data were processed

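The deposited values are log2 probe set values in the authors' series table. Per the labels' protocols, biotin-labelled cRNA from Trizol RNA was hybridised to Affymetrix arrays, and the summary and normalization methods are not given in the sources used here. The values ran from 5.43 to 14.50 with array medians of 7.23 to 7.25, and were used as deposited. Symbols came from the platform annotation, updated by Entrez ID through RefSeq (GRCm38.p6), where 34741 of 34945 probe sets with 1 symbol matched. For each gene the brightest probe set by mean was taken, and 13445 genes with a mean at or above the 40th percentile of probe sets, 6.93, were tested. Genotypes, 3 arrays each, were compared with limma 3.58.1 in R 4.3.3 (lmFit, eBayes with a mean-variance trend, no covariates), with Benjamini-Hochberg adjustment over all tested genes and a threshold of 0.05. A separate fit to all 45037 non-control probe sets served the second probe sets. The scripts were tested on simulated data. P-values measure only the spread between these samples.

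The members and lists were chosen with earlier results of these data known, so counts over them are descriptions. Genes were named by a fixed rule: all members, Vim, listed genes past the threshold or with the 4 smallest p per list, of which examples are given, the 3 profiles nearest to each widely varying member and the 2 brightest markers of a cell type. Iigp1, Ciita, Cxcl9, Nos2, Ifnb1, Ifng, Siglech, Ly6d, Pacsin1, Cox6a2, Ccr9, Spib and the macrophage markers other than Lyz2 and Cd68 fall outside it and were named after their values were seen. Markers of conventional dendritic cells, neutrophils, B cells, T and NK cells, stromal and erythroid cells were also read. Deviations of same-numbered replicates from their group means correlated at 0.50, -0.19 and 0.05 for replicates 1, 2 and 3, so the numbers were not taken as pairs. Alternatives covered normalization, filter, probe set rule, variance model, array weights, a per-gene test, a replicate block, the threshold and leaving out each array.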

Additional observations from a re-analysis of the deposited data

How the results depend on the processing

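Of 119 alternative values of the 8 member genes, 107 kept their direction and their side of the limma threshold, 5 came past the threshold and 7 changed sign. The filters, the variance models, the per-gene test and the replicate block leave a gene's log2 fold change as it was. So does the mean of probe sets for a gene with 1 probe set. Direction could not change in those settings, so the 107 is not a measure of its stability. Quantile normalization, median centring, other filters, the mean of a gene's probe sets and eBayes without the trend called 0 member genes, as with the main setting. With array quality weights, which gave vimentin-deficient replicate 3 a weight of 0.226, 93 of 13445 genes were called, 52 of them higher. Among these were 2 of the 8 member genes, Usp18 (1.78, limma adjusted p = 0.0053) and Irf7 (1.15, limma adjusted p = 0.0107). In the separate weighted fit to probe sets 2 of the 10 member probe sets rose, and the number over all probe sets was not counted. With those weights Irf1 had -0.14 and Irf5 -0.077. Testing each gene on its own variance called 0 genes, and the replicate block, whose numbers do not pair the samples, called 0 genes and 0 members. Leaving out each array in turn gave 0 to 315 genes, 0 to 3 member genes and 0 to 4 member probe sets. The 315, the 3 (Usp18, Irf7 and Stat2) and the 4 came without vimentin-deficient replicate 3, and without any other single array 0 members passed. In those 6 fits the log2 fold change ran from -0.17 to 0.30 for Irf1, from -0.15 to 0.04 for Irf2 and from -0.15 to 0.38 for Irf5. Irf1 was at -0.01 without wild-type replicate 1, and Irf2 at 0.045 without vimentin-deficient replicate 1 and 0.02 without wild-type replicate 2. Why 1 array decides the calls was not tested. The range was 1.67 to 2.18 for Usp18, 1.11 to 1.52 for Irf7, 0.56 to 0.92 for Stat2 and 0.32 to 0.57 for Irf9. The 4 members with separated groups stayed 4 under the other normalizations and filters, and were 5 without vimentin-deficient replicate 3, where Irf5 was lower, and without wild-type replicate 2, where Socs1 was higher. Leaving out an array cannot make separated groups overlap, so that count could only stay or rise there. The share of all tested genes with separated groups was not counted in these alternatives. The 5 is therefore no result about Irf5 or Socs1.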

Other observations

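Of the markers of cells other than macrophages 0 passed by limma with 6 arrays. List means on the vimentin-deficient and wild-type arrays were 7.19 to 7.31 and 7.23 to 7.31 for conventional dendritic cells, 7.09 to 7.21 and 7.19 to 7.24 for neutrophils, 6.69 to 6.85 and 6.76 to 6.81 for B cells, 7.38 to 7.51 and 7.48 to 7.56 for T and NK cells, and 7.30 to 7.38 and 7.31 to 7.36 for stromal cells. For erythroid cells they were 7.20 to 7.34 and 7.36 to 7.41, and without vimentin-deficient replicate 3 the erythropoietin receptor gene Epor, one of 3 measured, fell by 0.32 (limma adjusted p = 0.0389). Brightest in each list were Itgae, Xcr1, Elane, Mpo, Cr2, Pax5, Cd3e, Cd4, Pdgfrb, Col1a1, Epor and Klf1. Their part in the values of the interferon genes was not tested.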
